A study of Mus musculus with 9 samples.

Results

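Gfi1, its paralog Gfi1b and 4 genes beside Gfi1 on chromosome 5 were followed in the RNA of mouse CD8+ T cells activated with or without an inhibitor of LSD1. The 4 neighbours were the long noncoding RNA genes 4930428O21Rik and A930041C12Rik and the protein-coding genes Evi5 and Rpap2. These 6 genes, of 24391 listed, were taken by symbol from the batch-corrected count table. They were picked because of how Gfi1 and its neighbours behaved between the treated and untreated libraries, so that contrast is given for them as a description, without a test. The 9 libraries were 5 from cells without the inhibitor (untreated, NT) and 4 from cells with it (LSD1i). All 9 came from activated cells at 72 h, cultured with interleukin 2 at 100 U/mL. The inhibitor is not named in the labels, which also give no strain, age, genotype or mouse of origin and do not say whether replicates came from separate animals or cultures. The p-values below therefore cover the variation among libraries as sequenced, part of which may be technical. The question was how activated CD8+ T cells differ in expression with and without LSD1 inhibition.

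Gfi1 and Gfi1b are zinc finger repressors. Each carries a short amino-terminal SNAG domain that docks into LSD1, a histone demethylase encoded by Kdm1a, and so brings LSD1 and its CoREST partner proteins to DNA. Gfi1 acts in T lymphocytes, granulocytes and blood stem cells, whereas Gfi1b is best known from red cell and platelet precursors. Both proteins bind sites built on the core AATC, and each is known to repress its own gene and that of its paralog. Evi5 encodes a regulator of cell division and membrane traffic, and Rpap2 a phosphatase that acts on RNA polymerase II. No function is assigned here to the RNAs of 4930428O21Rik and A930041C12Rik.

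The promoters of the paralogs and of both noncoding genes are shown because Gfi1 and Gfi1b bind AATC sites and the values below turn on these genes. No link between the sites and the values was tested. Each window runs from 250 bases before to 50 after a RefSeq start site on GRCm38.p6 and is written 5′ to 3′ along the gene. All 4 lie on the minus strand, and capitals mark AATC or its reverse complement GATT. The windows are chr5:107725756-107726055 for the upstream start of Gfi1, chr2:28621933-28622232 for Gfi1b, chr5:107703431-107703730 for 4930428O21Rik and chr5:107633801-107634100 for A930041C12Rik.
Gfi1: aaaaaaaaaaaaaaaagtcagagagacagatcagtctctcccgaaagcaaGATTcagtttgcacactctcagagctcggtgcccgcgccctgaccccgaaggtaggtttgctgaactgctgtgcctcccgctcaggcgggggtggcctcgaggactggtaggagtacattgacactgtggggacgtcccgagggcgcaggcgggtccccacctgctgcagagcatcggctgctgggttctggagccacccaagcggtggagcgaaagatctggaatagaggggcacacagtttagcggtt
Gfi1b: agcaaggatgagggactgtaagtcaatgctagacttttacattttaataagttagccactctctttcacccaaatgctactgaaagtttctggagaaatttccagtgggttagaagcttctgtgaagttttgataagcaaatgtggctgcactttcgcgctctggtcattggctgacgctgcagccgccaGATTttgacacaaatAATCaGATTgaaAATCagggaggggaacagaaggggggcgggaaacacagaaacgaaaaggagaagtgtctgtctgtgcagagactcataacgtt
4930428O21Rik: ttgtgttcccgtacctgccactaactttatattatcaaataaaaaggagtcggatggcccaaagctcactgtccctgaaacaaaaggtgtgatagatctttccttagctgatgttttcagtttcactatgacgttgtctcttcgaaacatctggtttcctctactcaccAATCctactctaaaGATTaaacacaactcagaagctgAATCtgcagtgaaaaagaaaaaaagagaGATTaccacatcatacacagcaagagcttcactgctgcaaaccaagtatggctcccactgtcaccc
A930041C12Rik: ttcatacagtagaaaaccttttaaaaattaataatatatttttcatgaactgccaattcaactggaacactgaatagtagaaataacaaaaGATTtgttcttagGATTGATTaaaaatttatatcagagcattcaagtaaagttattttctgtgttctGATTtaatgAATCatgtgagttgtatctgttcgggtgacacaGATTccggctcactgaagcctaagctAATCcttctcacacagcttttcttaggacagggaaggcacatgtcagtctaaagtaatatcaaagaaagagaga

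AATC on either strand is a common word, found in 73.1% of the 32851 promoter windows of this length, with a median of 1 match. The upstream window of Gfi1 had 1 match, 200 bases before the start site, and the window of its other start had 0. Gfi1b had 4 matches, which began at positions −60, −45, −40 and −33 from the start site and spanned 31 bases. In all, 10.1% of the windows had at least 4 matches, and 22 windows (0.0670%) held 4 within 31 bases or fewer. That spacing was looked at because it was seen in Gfi1b, so the share is a description. 4930428O21Rik also had 4 matches, spread from −81 to −16. A930041C12Rik had 7, from −159 to −24, a number reached by 151 windows (0.460%). Rpap2 likewise had 7 in 1 of its 3 windows, and Evi5 had 1. AATC is mostly A and T. G and C made up 32.7% of bases in the window of A930041C12Rik, 41.3% in 4930428O21Rik, 44.3% in Gfi1b and 46.7% in that Rpap2 window. The upstream window of Gfi1 had 58.0% and that of Evi5 69.7%, with a median of 52.7% over all windows. The part of base content in these numbers was not tested. The longer words AATCAC (10.4% of windows) and TAAATCAC (0.578%), searched on both strands and each containing AATC, were not found in the 4 windows shown. In Rpap2 AATCAC occurred 1 time. A match is a string of letters and not a measured binding site. The libraries measured RNA only, and the submitters' notes name another build, mm9.

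Libraries held 15163983 to 29245278 raw reads, and 14039 to 17020 genes had at least 1 read. The raw and the batch-corrected table disagree on the names of 4 libraries. The raw columns called NT 1 and NT 2 hold the libraries that the corrected table calls LSD1i 1 and LSD1i 2, and the reverse holds for the raw LSD1i 1 and LSD1i 2. The other 5 are named alike. The labels do not say which set is right, so the names of the corrected table are used below unless stated, and every direction holds for those names. The defining marker of the labelled cell type was present, and Cd4 was nearly absent. Cd8a was at 373 ± 29.9 CPM (counts scaled to the library size; SD, n = 5) in untreated and 484 ± 20.6 (n = 4) in treated libraries, while Cd4 was at 0.131 ± 0.0739 and 0.0950 ± 0.100. The other listed CD4 T cell markers differed. Foxp3 was at 0.0778 and 0.185 CPM, but Zbtb7b was at 38.1 ± 7.26 and 41.8 ± 3.94.

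Gfi1 was the most abundant of the 6 transcripts and stood higher in every LSD1i library than in any NT library. In NT 1 to NT 5 it was at 127, 144, 140, 144 and 116 CPM. In LSD1i 1 to LSD1i 4 it was at 317, 323, 361 and 286 CPM. The lowest LSD1i value thus lay well above the highest NT value, and within each group the libraries varied by 9.29% (NT) and 9.46% (LSD1i) of their mean. Mean levels were 134 ± 12.5 CPM in NT (SD, n = 5) and 322 ± 30.4 in LSD1i (n = 4). The log2 fold change of LSD1i over NT was 1.26 ± 0.09 (SE), or 2.40-fold. By its mean level Gfi1 stood at the 93.4th percentile of the 11981 genes that passed the low-count filter. Of the 258 genes called higher, 16 had a mean CPM at least that of Gfi1, and 2, with Gfi1 itself among them, had both that level and at least its fold.

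Gfi1b, the paralog expressed in red cell and platelet precursors, had at most 1 read in any library. It had 1 read in each of NT 3, NT 4 and LSD1i 4 and 0 in the other 6 libraries. It did not pass the filter on low counts, and both groups lay under the level of 3 counts, which corresponds to 0.110 to 0.200 CPM in these libraries, so no fold is given. Other genes of the red cell and platelet lineages were also low. Of 10 such markers 4, the globin genes Hba-a1, Hba-a2, Hbb-b1 and Hbb-b2, were at 0 in every library, although near-identical copies can lose reads in counting. Of the 10, 2 could be tested and 0 of these had an adjusted p under 0.05 in edgeR, against 3.31% of all tested genes. At an unadjusted p under 0.05 there were 0 (14.6% over all genes), and DESeq2 called 0 (5.57% over all genes). The summed level of the 10 was 2.37 to 3.29 CPM in NT and 2.40 to 3.20 in LSD1i.

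**Figure D1:**
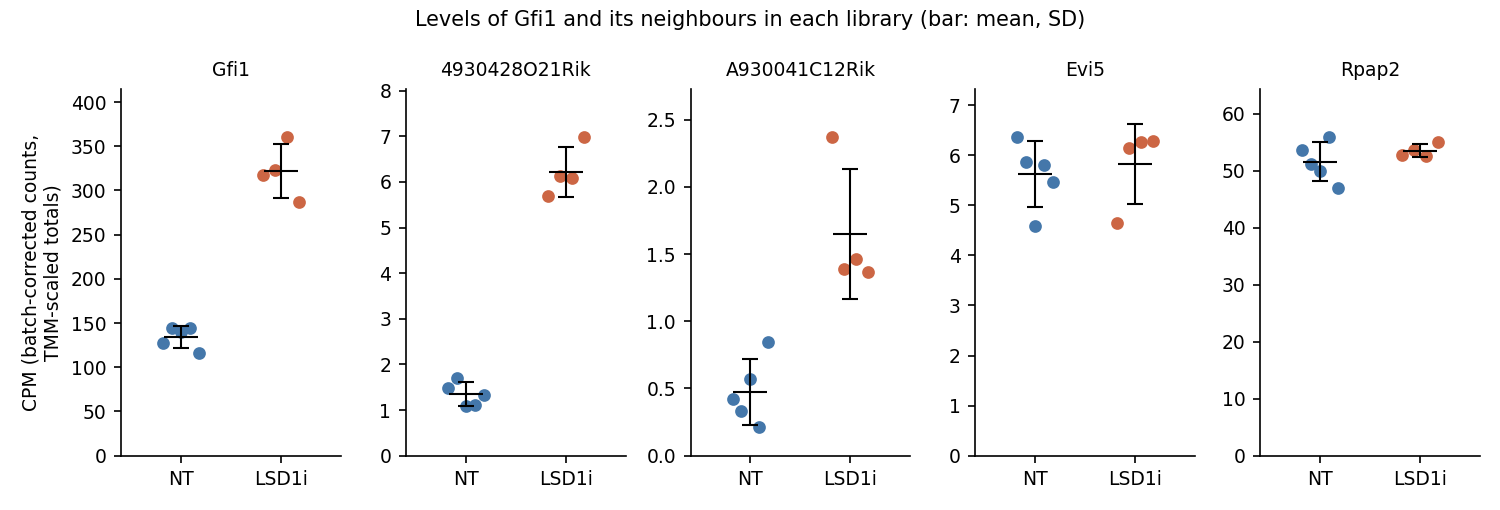
Level of each gene in every library of the batch-corrected table, in CPM on a separate axis per gene. Points are libraries and bars are means with SD. Gfi1, 4930428O21Rik and A930041C12Rik have no NT library as high as the lowest LSD1i library, whereas the groups overlap for Evi5 and Rpap2. Gfi1b is not drawn.

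4930428O21Rik is annotated as a long intergenic noncoding RNA gene on the same strand as Gfi1 and is the next listed gene beyond its 3′ end, overlapping no other annotated gene. Its levels in NT 1 to NT 5 were 1.49, 1.71, 1.09, 1.11 and 1.33 CPM. In LSD1i 1 to LSD1i 4 they were 5.68, 6.14, 6.09 and 6.99 CPM. The groups were far apart, and within each the libraries varied by 19.5% (NT) and 8.82% (LSD1i) of their mean. The means were 1.35 ± 0.263 CPM (SD, n = 5) and 6.22 ± 0.549 (n = 4), a log2 fold change of 2.21 ± 0.16 (SE), or 4.62-fold. These levels rest on 21 to 39 corrected counts per NT library and 103 to 148 per LSD1i library.

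The noncoding RNA also stood higher relative to Gfi1 in the treated libraries. For every 1000 reads of Gfi1, 4930428O21Rik had 7.69 to 11.9 in the NT libraries and 16.9 to 24.4 in the LSD1i libraries. The mean ratio was 10.1 ± 2.17 in NT (SD, n = 5) and 19.6 ± 3.35 in LSD1i (n = 4). In raw counts, which carry no batch correction, the ranges were 7.66 to 11.7 and 17.3 to 23.6. A ratio of 2 genes within a library does not depend on how the libraries are scaled.

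A930041C12Rik is annotated as an antisense RNA that lies inside Rpap2 on the opposite strand and shares no exon base with it. Its values were 0.419, 0.330, 0.568, 0.211 and 0.845 CPM in NT 1 to NT 5. In LSD1i 1 to LSD1i 4 they were 2.37, 1.39, 1.46 and 1.37 CPM. All LSD1i libraries were above all NT libraries, with LSD1i 1 well above the other 3. The means were 0.475 ± 0.245 CPM (SD, n = 5) and 1.65 ± 0.484 (n = 4), a log2 fold change of 1.75 ± 0.34 (SE), or 3.47-fold. With 4 to 19 corrected counts per NT library and 25 to 43 per LSD1i library, this is the least precise of the 3, and its libraries varied by 51.6% (NT) and 29.3% (LSD1i) of the mean. Relative to Gfi1 its groups overlapped, at 1.46 to 7.31 reads per 1000 of Gfi1 in NT and 4.06 to 7.48 in LSD1i.

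Evi5, the next gene on the upstream side of Gfi1, and Rpap2, the host of A930041C12Rik, had overlapping groups. Evi5 was at 6.37, 5.87, 4.59, 5.81 and 5.47 CPM in NT 1 to NT 5 and at 4.64, 6.14, 6.26 and 6.28 CPM in LSD1i 1 to LSD1i 4. Its log2 fold change was 0.05 ± 0.14 (SE). All 4 LSD1i libraries of Evi5 lay within the range of its NT libraries. Rpap2 was at 53.6, 51.2, 49.97, 55.9 and 47.0 CPM in NT 1 to NT 5 and at 52.7, 53.6, 52.6 and 54.97 CPM in LSD1i 1 to LSD1i 4. Its log2 fold change was likewise 0.05, with an SE of 0.07. The antisense RNA and its host thus differed in how they compared between groups. A930041C12Rik had 3.78 to 17.99 reads per 1000 of Rpap2 in NT and 24.9 to 45.0 in LSD1i.

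Of the 6 genes, 3 (Gfi1 and both noncoding genes) were higher in LSD1i with no overlap between the groups. Over all tested genes 4.41% were higher without overlap and 7.86% differed without overlap in either direction, and since the genes were chosen from this contrast nothing is read from the count. By the test, 3.31% of all genes were called either way (258 or 2.15% higher and 139 or 1.16% lower of 11981), taking an adjusted p under 0.05 from the quasi-likelihood test of edgeR as a call. An unadjusted p under 0.05 was seen for 14.6% of all genes, and DESeq2 called 5.57%. The median log2 fold change over all tested genes was −0.02. In the authors' deposited table, Gfi1 (log2 fold change 1.27), 4930428O21Rik (2.22) and A930041C12Rik (1.75) are marked as up. The authors' deposited table marks Rpap2 (0.06), Evi5 (0.06) and Gfi1b (−0.46) as not significant.

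Per kilobase of exon, with lengths from GENCODE M21, Gfi1 was at 42.1 ± 3.91 CPM in NT (SD, n = 5) and Rpap2 at 12.5. A930041C12Rik (0.884), 4930428O21Rik (0.774) and Evi5 (0.698) followed at levels per kilobase that overlapped between libraries. In LSD1i the levels per kilobase were 101 ± 9.55 CPM (SD, n = 4) for Gfi1 and 12.9 for Rpap2. 4930428O21Rik (3.58) and A930041C12Rik (3.07) now stood above Evi5 (0.723), so the order of the last 3 differed between the groups. Per length, both noncoding RNAs thus remained far below Gfi1 in either group.

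Gfi1 shares 101 exon bases with A430072P03Rik on the opposite strand in the GENCODE annotation, and Rpap2 shares 276 with Glmn. Evi5 shares 378 with Gm43592. No source used here says that reads were counted by strand, so reads in these stretches, and any read from A930041C12Rik or unspliced Rpap2 RNA, cannot be assigned to a strand.

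The wider neighbourhood was described over the 10 listed genes on each side of Gfi1 in the RefSeq order. Of the 16 that are not among the 6 genes, 11 could be tested and 0 were called, against 3.31% of all genes. At an unadjusted p under 0.05 there were 2 (14.6% over all genes), and DESeq2 called 0 (5.57% over all genes). With 11 genes, 0 calls lie near the share over all genes, so nothing is read from the count. The median log2 fold change of the 11 was −0.06. The extremes, named after their values were seen, were Btbd8 at −0.34 ± 0.18 (SE, adjusted p = 0.430 in edgeR) and the ribosomal protein gene Rpl5 at 0.22 ± 0.10 (adjusted p = 0.373). Around Gfi1b, 11 of 20 genes could be tested and 0 were called, with a median log2 fold change of 0.07. At an unadjusted p under 0.05 there were 2, and DESeq2 called 0, against the same shares over all genes. Next to Gfi1b were Gtf3c5 and Tsc1. Gtf3c5, a subunit of a transcription factor of RNA polymerase III, was at 0.06 ± 0.08 (adjusted p = 0.809 in edgeR). Tsc1, an inhibitor of growth signalling through mTOR, was at −0.08 ± 0.17 (adjusted p = 0.898 in edgeR).

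**Figure D2:**
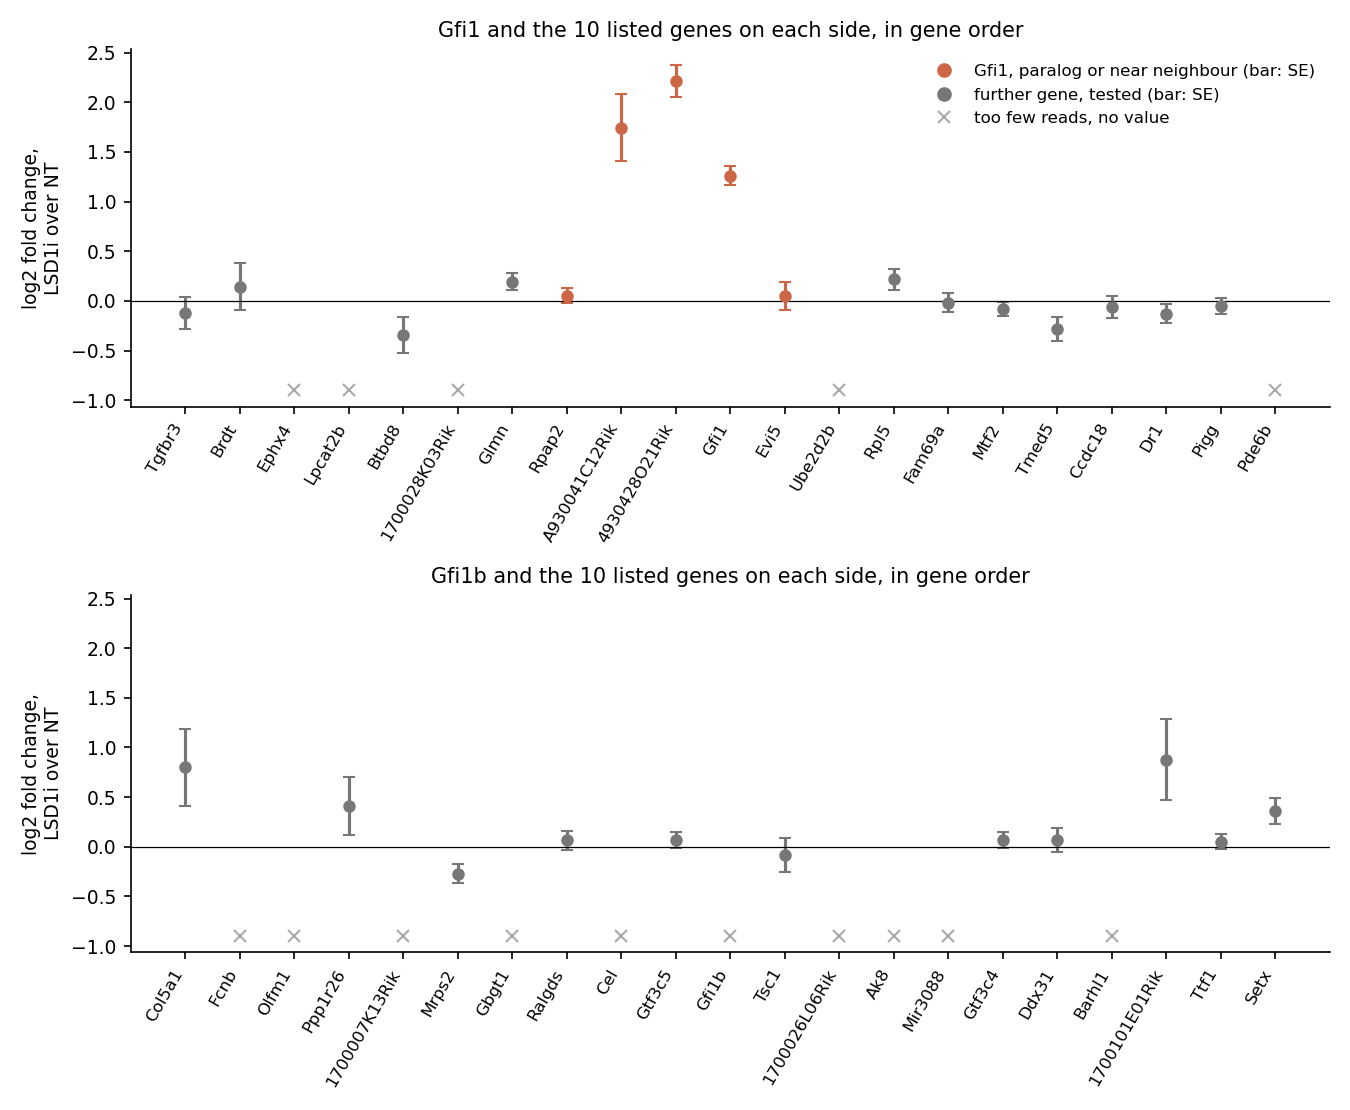
Log2 fold change of LSD1i over NT for Gfi1 (top) and Gfi1b (bottom), each with the 10 listed genes on each side. Genes are in order, without distance to scale, and bars are SE. Crosses, at a fixed height, mark genes that did not pass the low-count filter and have no value. Gfi1 and both noncoding genes stand between 1.26 and 2.21, and the further genes around Gfi1 between −0.34 and 0.22. The further genes around Gfi1b stand between −0.27 and 0.88.

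Whether these directions hold depends on which library names are used. Under the names of the raw table, Gfi1 had 6294 and 6808 raw reads in NT 1 and NT 2, but 2729, 2482 and 2528 in the remaining NT libraries. The table lists 3490 and 2438 in LSD1i 1 and LSD1i 2, but 5540 and 5965 in LSD1i 3 and LSD1i 4. Each group as named there thus held libraries at both levels. 4930428O21Rik followed the same division, with 109 and 126 reads in NT 1 and NT 2 and 19 to 28 in NT 3 to NT 5, against 41 and 27 in LSD1i 1 and LSD1i 2 and 99 and 141 in LSD1i 3 and LSD1i 4. The log2 fold changes with those names were 0.09 ± 0.41 (SE) for Gfi1, 0.37 ± 0.68 for 4930428O21Rik and −0.01 ± 0.69 for A930041C12Rik.

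**Figure D3:**
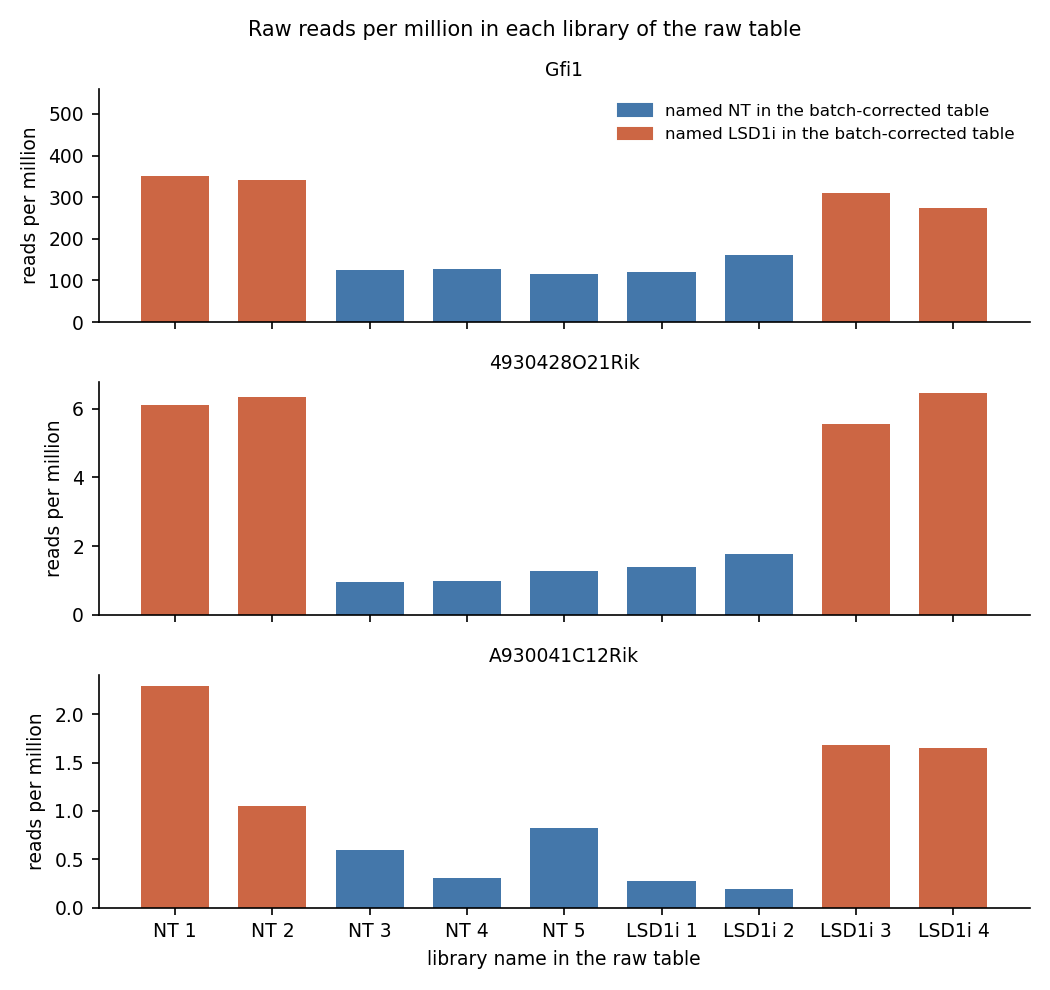
Raw reads scaled to the total of each library (RPM) under the names of the raw table. Colours show whether the batch-corrected table names that library NT or LSD1i. NT 1 and NT 2 stand with LSD1i 3 and LSD1i 4 for Gfi1 and 4930428O21Rik. For A930041C12Rik NT 2, at 1.06 RPM, lies between NT 5 (0.821) and LSD1i 4 (1.65).

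The 5 libraries that both tables name alike avoid this question and are taken as the second of 2 batches. The batches were set by replicate number (1 and 2 against 3 to 5) with the counts known, and the labels do not give them. In raw counts of those 5 libraries (3 NT and 2 LSD1i), log2 fold changes were 1.29 ± 0.12 (SE) for Gfi1, 2.52 ± 0.23 for 4930428O21Rik and 1.55 ± 0.40 for A930041C12Rik. In the other 4 libraries (2 and 2), with the corrected names, they were 1.24 ± 0.17, 1.90 ± 0.27 and 2.64 ± 0.59. Evi5 was at 0.22 ± 0.17 and −0.23 ± 0.27 in the 5 and the 4 libraries, and Rpap2 at 0.07 ± 0.12 and 0.01 ± 0.16. With the corrected names, Gfi1 and both noncoding genes were therefore higher in LSD1i in each batch. All 9 raw libraries with the batch as a term gave 1.27 ± 0.09, 2.24 ± 0.18 and 1.96 ± 0.37 for Gfi1, 4930428O21Rik and A930041C12Rik. Over all genes this batch-term fit called 1.85%, and a fit with the replicate number as a block in its place (the block fit) called 2.95%. NT 5 has no LSD1i library of its number and adds nothing to the block fit.

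Whether the difference between LSD1i and NT itself differed between the batches could be tested, as the choice of genes did not use it. The test used the corrected names, and the raw table's names would reverse the sign of each fold change in the first batch. Its outcome therefore depends on which names are right. In this interaction 0 of 11916 genes (0.0%) were called by edgeR's quasi-likelihood test, 581 had an unadjusted p under 0.05 and DESeq2 called 3. For Gfi1 the second batch minus the first was 0.02 ± 0.20 (SE, adjusted p = 0.989 in edgeR). It was 0.58 ± 0.35 for 4930428O21Rik and −1.12 ± 0.75 for A930041C12Rik (adjusted p = 0.764 for both in edgeR). Evi5 (0.42 ± 0.31) and Rpap2 (0.03 ± 0.19) did not pass either (adjusted p = 0.765 and 0.967). The errors for both noncoding genes leave room for sizeable differences between batches.

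The level in the second batch against the first is given as a description. The batches were set with these same counts known, so differences between them are partly fixed by that. In raw counts, with treatment in the model, 38.7% of all genes had an adjusted p under 0.05 in edgeR between the batches. Rpap2 was at 57.8 ± 4.63 CPM in the second batch (SD, n = 5) and 43.7 ± 1.05 in the first (n = 4), with all 5 libraries of the second above all 4 of the first. Its log2 difference was 0.41 ± 0.09 (SE). Evi5 was at 6.41 ± 0.662 and 4.62 ± 0.686 CPM, a difference of 0.47 ± 0.16. For Gfi1 the second batch minus the first was −0.13 ± 0.09, for 4930428O21Rik −0.19 ± 0.18 and for A930041C12Rik 0.55 ± 0.38.

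**Figure D4:**
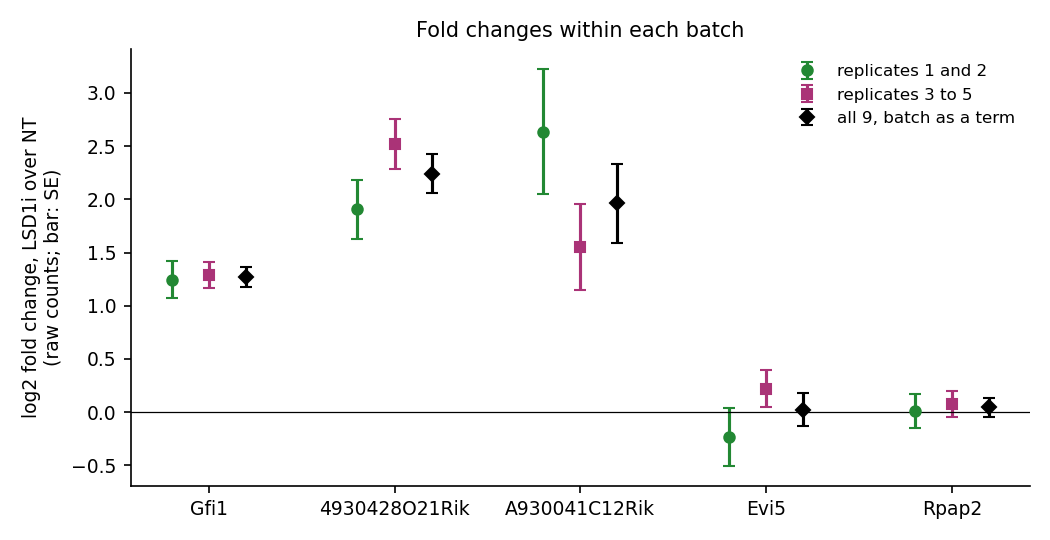
Log2 fold change of LSD1i over NT in raw counts with the corrected names, for the first batch (2 NT and 2 LSD1i libraries), the second batch (3 NT and 2 LSD1i) and both with a batch term; bars are SE. The values of Gfi1 lie at 1.24 to 1.29 in all 3, and those of Evi5 and Rpap2 at −0.23 to 0.22.

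The partners through which Gfi1 and Gfi1b act were measured as a list of 14 CoREST complex genes and Gfi1 partners, all of which could be tested. Of these 1 rose, 0 fell and 13 did not pass, against 3.31% of all genes called, and the list's median log2 fold change was 0.03. The gene that rose was Rcor2, a CoREST scaffold, from 8.75 ± 1.65 CPM (SD, n = 5) to 14.9 ± 2.54 (n = 4), with a log2 fold change of 0.76 ± 0.16 (SE, adjusted p = 0.0258 in edgeR). It passed in the block fit (adjusted p = 0.0395) but not in the batch-term fit (0.0775), nor in 6 of the 9 fits that leave out 1 library (up to 0.0858). Kdm1a, the target of the inhibitor, was at 126 ± 13.1 CPM in NT (SD, n = 5) and 120 ± 5.77 in LSD1i (n = 4) and did not pass (−0.07 ± 0.09, adjusted p = 0.818 in edgeR). Rcor3, another scaffold (−0.36 ± 0.11, adjusted p = 0.129), and the deacetylase Hdac2 (−0.20 ± 0.10, 0.419) did not pass in edgeR.

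Other SNAG-domain repressors, which carry the same LSD1 docking domain, were scarce. Of 7 listed, 3 could be tested and 0 were called, against 3.31% of all genes. At an unadjusted p under 0.05 there was 1 (14.6% over all genes), and DESeq2 called 0 (5.57% over all genes). The median log2 fold change was −0.32, and 3 genes are too few to read anything from the count. Snai3 was at 5.50 ± 1.32 CPM in NT (SD, n = 5) and 3.39 ± 0.985 in LSD1i (n = 4), a log2 fold change of −0.69 ± 0.24 (SE, adjusted p = 0.180 in edgeR). Snai1 was at −0.28 ± 0.33 (adjusted p = 0.794 in edgeR).

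Of 35 genes reported elsewhere as targets of Gfi1, 24 could be tested, of which 0 rose, 1 fell and 23 did not pass, against 3.31% of all genes called. Their median log2 fold change was 0.07, against −0.02 over all tested genes. At an unadjusted p under 0.05 the list had 7 genes of 24 (14.6% over all genes), and DESeq2 called 3 (5.57% over all genes). S1pr1, the receptor that guides lymphocytes out of lymph nodes, fell from 32.3 ± 2.97 CPM (SD, n = 5) to 23.6 ± 2.36 (n = 4), by 0.46 on the log2 scale (SE 0.10, adjusted p = 0.0327 in edgeR). It did not pass in the batch-term fit (adjusted p = 0.0720), the block fit (0.107) or 7 of the 9 fits that leave out 1 library (up to 0.117). Klf2, a transcription factor known to drive S1pr1, had 9.23 ± 2.76 CPM (SD, n = 5) without and 16.4 ± 2.94 (n = 4) with the inhibitor. Its log2 fold change of 0.82 ± 0.21 did not pass (adjusted p = 0.0571 in edgeR), but did in the block fit (0.0118). Klf2 did not pass in the batch-term fit (adjusted p = 0.114) or in 7 of the 9 fits that leave out 1 library (up to 0.181). Csf1, the macrophage growth factor, at 1.05 ± 0.32, did not pass either (adjusted p = 0.118 in edgeR). Il7r, the interleukin 7 receptor and a well-known gene repressed by Gfi1 in T cells, was at 163 ± 23.9 CPM in untreated and 165 ± 27.1 in treated libraries (0.02 ± 0.13, adjusted p = 0.971 in edgeR). Il7r falls outside the rule for named genes and was chosen after its values were seen.

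Of 13 genes of interleukin 2 receptor and STAT signalling, 0 were called by edgeR, against 3.31% of all genes. At an unadjusted p under 0.05 there were 4 (14.6% over all genes), and DESeq2 called 3 (5.57% over all genes). The median log2 fold change was 0.04. Il2rb, a receptor chain for interleukins 2 and 15, was at 674 ± 87.4 CPM in NT (SD, n = 5) and 857 ± 24.1 in LSD1i (n = 4). Its log2 fold change was 0.35 ± 0.10 (adjusted p = 0.0901 in edgeR). Il2rb passed in the block fit (adjusted p = 0.0476) but not in the batch-term fit (0.263). Myb, a transcription factor of proliferating lymphocytes, was at −0.47 ± 0.12 (adjusted p = 0.0529 in edgeR).

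**Figure D5:**
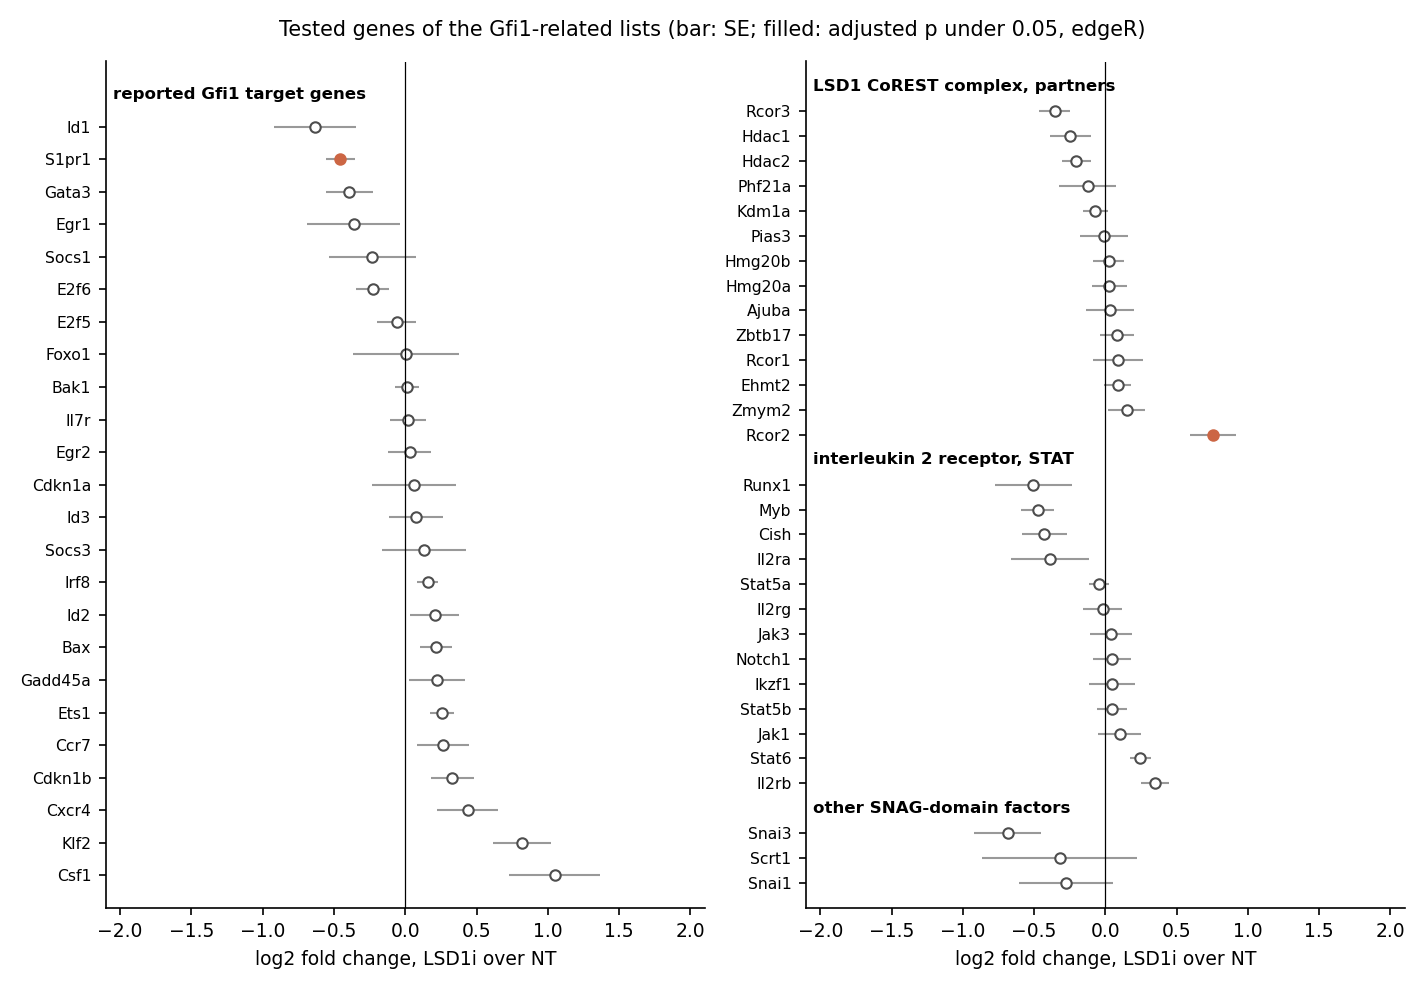
Log2 fold change of LSD1i over NT for each tested gene of 4 lists related to Gfi1, with SE bars and filled marks for an adjusted p under 0.05 in edgeR. The filled marks are S1pr1 at −0.46 and Rcor2 at 0.76, and the rest are open.

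Markers of other blood lineages were compared because several use Gfi1 or Gfi1b. Of 10 granulocyte and monocyte markers 0 could be tested and 4, Elane, Ctsg, S100a8 and S100a9, were at 0 in every library, and their summed level was 0.211 to 0.712 CPM in NT and 0.331 to 0.614 in LSD1i. The 6 B cell markers summed to 11.7 to 13.1 CPM in NT and 8.31 to 9.71 in LSD1i, and both that could be tested, Cd79b (adjusted p = 0.0317 in edgeR) and Ebf1 (0.0480), were called lower, against 3.31% of all genes called. DESeq2 called 1 of them. The call of Cd79b was lost in 7 of the 9 fits that leave out 1 library (up to 0.123) and that of Ebf1 in 4 of the 5 that tested it (up to 0.162). In raw counts Cd79b did not pass in the batch-term fit (0.132) or the block fit (0.164), and Ebf1 was under the count filter. The 8 CD8 T cell markers summed to 2065 to 2308 CPM in NT and 2362 to 2539 in LSD1i, and 1 of 8, Cd8a, was called higher (adjusted p = 0.0266 in edgeR), against 3.31% of all genes called. It did not pass in 6 of the 9 fits that leave out 1 library (up to 0.101), the batch-term fit (0.126) or the block fit (0.0548). The 3 CD4 T cell markers, of which 1 (Zbtb7b) could be tested and 0 passed (0 at an unadjusted p under 0.05, 0 in DESeq2), summed to 28.1 to 46.5 CPM and 38.5 to 45.6. Nearly all of that sum was Zbtb7b, at 27.9 to 46.3 CPM in NT and 38.4 to 45.3 in LSD1i. The part of the B cell and CD8 sums in the differences above was not tested. In bulk RNA, fewer cells of a type and less RNA per cell cannot be told apart.

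The genes whose profile over the 9 libraries lay nearest to that of Gfi1 were found by the root mean square distance between centred log2(CPM + 0.5) values. The nearest 8 of 11980 were Gpm6b (0.113), Pde6d (0.114), Gpr183 (0.142), Pdlim5 (0.182), Phf11a (0.190), St8sia4 (0.190), Fam89a (0.194) and Scpep1 (0.195), against a median distance of 0.669 over all genes. Pde6d, which encodes a chaperone of lipid-anchored proteins, was at 9.32 ± 1.18 CPM in NT (SD, n = 5) and 23.6 ± 1.86 in LSD1i (n = 4). Gpr183, a receptor for oxysterols, was at 23.4 ± 3.01 and 57.8 ± 5.79 CPM. St8sia4, an enzyme that adds polysialic acid, was at 59.1 ± 6.31 and 116 ± 13.7 CPM. For Fam89a the added 0.5 exceeds its NT levels of 0.0528 to 0.198 CPM and so shrinks its difference between groups. Without it the log2 fold change of Fam89a was 2.61 ± 0.33 (SE), against 1.26 for Gfi1. All points share libraries, depth and the contrast that chose Gfi1, and in raw counts centred within batches 4 of the 8 were again among the nearest 8. A930041C12Rik and 4930428O21Rik ranked 122 and 125 of the 11980.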

How the data were processed

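RNA of 9 mouse libraries was analysed from 3 deposited tables. STAR, featureCounts, edgeR and build mm9 are named per the submitters' processing notes, with no role, version or strand setting. Raw read counts were deposited by the authors without normalization. Estimated counts after a batch correction were deposited by the authors, by a method not given in the sources used here, and were rounded to whole numbers here. The authors' deposited table gives log2 fold changes and log2 CPM, a score (F) and p-values, and only its fold changes and marks were used. All 9 columns of each count table were mapped by name, and 0 were left out.

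The 6 genes and all lists were chosen with earlier results of these data known. The lists were LSD1 CoREST complex and Gfi1 partners, SNAG-domain factors, reported Gfi1 target genes, interleukin 2 receptor and STAT signalling, and markers of CD8 T, CD4 T, granulocyte and monocyte, erythroid and megakaryocyte, and B cells. From the Gfi1 target list 1 gene is not reported here and is left out of its counts. Tests were edgeR 4.0.16 quasi-likelihood fits (R 4.3.3) over all genes, group only, with TMM scaling, the edgeR filter (at least 10 counts, and 15 in total) and two-sided p-values adjusted by Benjamini-Hochberg, called under 0.05. Raw counts were fitted under the corrected names for the batch comparisons. These batches were set by replicate number with the data known, and the corrected table is tested without a charge for its correction. Each standard error is the size of the coefficient over the square root of F. Named were the 6 genes, per list the called genes and the 2 with the smallest p of the rest, the called and next genes around each paralog, and the 8 nearest profiles. Alternatives were DESeq2 1.42.0, other scaling, no filter, raw counts, a batch term, a replicate block and leaving out each library. The fit of the 4 libraries named differently was added after the data were seen. The edgeR fit was tested on simulated data.

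Libraries were matched between tables by their genes at 0. The labels number replicates alike in both groups without saying what a number shares. Deviations of same-numbered libraries correlated at 0.581 to 0.826 in raw counts, so the numbers were taken as pairs there. In the corrected table the correlations were −0.376 to 0.455. In raw counts LSD1i 1 correlated more with NT 2 (0.813) than with NT 1 (0.590), and LSD1i 4 more with NT 3 (0.709) than with NT 4 (0.581). LSD1i 2 and LSD1i 3 correlated most with the NT library of their own number. Batch and pair thus overlap, and the block fits assume a pairing that the labels do not state. Motifs were searched in RefSeq promoter windows (27025 genes; all 6 matched). Neighbours came from the RefSeq order, to which 24242 of 24391 symbols matched.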

Additional observations from a re-analysis of the deposited data

Results flagged for a closer look

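The levels in each group of 4 or 5 libraries were examined for a single library far from the rest, over 50 groups of 25 genes. Chance marks about 1 in 20 groups, and 4 were marked. All 4 concern LSD1i 1, which carries the name NT 1 in the raw table. A930041C12Rik was at 2.37 CPM there against 1.37 to 1.46 in the other 3 LSD1i libraries. Evi5 was at 4.64 CPM against 6.14 to 6.28. S1pr1 was at 20.0 CPM against 24.4 to 25.0, and Csf1 at 1.99 against 1.18 to 1.23. Without this library the log2 fold changes were 1.52 for A930041C12Rik, 0.15 for Evi5, −0.39 for S1pr1 and 0.83 for Csf1. No cause was tested.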

How the results depend on the processing

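Apart from the fit with the names of the raw table, 19 alternatives kept Gfi1 at log2 fold changes of 1.21 to 1.31, 4930428O21Rik at 1.90 to 2.52 and A930041C12Rik at 1.52 to 2.64. Evi5 ranged from −0.23 to 0.22 and Rpap2 from 0.01 to 0.08. With the raw table's names Gfi1 was at 0.0897 and A930041C12Rik at −0.0091. The 397 genes called became 0 with those names (172 genes at an unadjusted p under 0.05), and with the corrected names on raw counts 220 with a batch term, 84 by group only, 117 in the 5 libraries named alike and 8 in the other 4, where fewer samples were fitted. DESeq2 called 667. Leaving out 1 library gave 219 to 432, the counts without LSD1i 1, LSD1i 3 and LSD1i 4 being 228, 251 and 219. The replicate block gave 326 on the corrected table and 352 on raw counts. On raw counts Klf2, Il2rb and Rcor2 passed with the block and not with the batch term. On the corrected table the block lost S1pr1 (adjusted p = 0.117) and added Klf2 (0.0122). The 1 call among CoREST complex genes and partners became 0 with the raw names, the batch term, the raw group-only fit, the 5 libraries and the other 4, and was 0 to 1 without 1 library. The 1 call among reported Gfi1 targets became 0 with the raw names, the batch term, the raw group-only fit, the 5 libraries and the other 4, 2 with plain totals, 2 without the filter and 3 in DESeq2, and was 0 to 1 without 1 library. The 0 calls of the interleukin 2 list became 1 with the raw replicate block, 1 with plain totals and 3 in DESeq2, and were 0 to 2 without 1 library. The 0 calls around Gfi1b were 0 to 1 without 1 library (1 without NT 1). The 0 interaction calls became 320 without the low-count filter and 3 in DESeq2, and were 0 to 401 without 1 library (401 without NT 2). The causes were not tested. The 4616 genes that differed between batches were 3522 to 5382 without 1 library. Other scalings moved the median of all genes by at most 0.01 on the log2 scale. Low counts limit Gfi1b, which could not be tested, and A930041C12Rik.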
